A study of Mus musculus with 2 samples.

Results

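The genes of gluconeogenesis, hepatic glucose release and glycogen precursor supply were examined in mouse RNA titled liver on 2 single-colour oligonucleotide arrays. The set was defined by name as Pck1, G6pc, Fbp1, Fbp2, Pcx, Slc2a2, Slc37a4, Gys2, Pygl and Ugp2, and a gene was kept where the platform annotation gave a probe set to that gene alone. Of these 10 genes, 8 were kept, out of 8251 genes measured in the same way. Gys2 and Pygl, the liver forms of glycogen synthase and glycogen phosphorylase, had no such probe set and were not analysed here. The 8 genes were read by 9 ordinary probe sets, and Pcx by a further 4 control probe sets. Both samples were total RNA bought from a commercial supplier, with titles that name liver and a source field that names spleen. They form 1 group, without a treatment, and the labels used here give no strain, sex, age, feeding state or number of animals. Nothing in the labels says that the samples came from separate animals, so SDs here measure only how far these arrays differ, which may be technical variation. The deposited values are signal intensities in arbitrary units. In RNA of a whole tissue, fewer cells of a type and less RNA per cell cannot be told apart.

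Gluconeogenesis makes glucose from lactate, amino acids and glycerol, and in mammals it runs mainly in hepatocytes and in the proximal tubule of the kidney. It shares its reversible steps with glycolysis and bypasses the irreversible ones with dedicated enzymes: pyruvate carboxylase (Pcx), phosphoenolpyruvate carboxykinase (Pck1), fructose-1,6-bisphosphatase (Fbp1 in liver and kidney, Fbp2 in muscle) and glucose-6-phosphatase (G6pc). The last reaction takes place in the endoplasmic reticulum, which glucose 6-phosphate enters through the transporter Slc37a4, and glucose crosses the hepatocyte membrane through Slc2a2 (GLUT2). Ugp2 makes UDP-glucose, the donor from which glycogen is built. Glucagon, acting through cyclic AMP, and glucocorticoids raise transcription of Pck1 and G6pc, and insulin lowers it.

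To show the regulatory sequence of the enzymes at both ends of the signal range, the 250 bases upstream of the RefSeq transcript start are printed for Pck1 and G6pc, the classical hormone-controlled genes, and for the paralogs Fbp1 and Fbp2, which are neighbours on chromosome 13 in RefSeq and lay far apart in signal. Sequences and positions are from RefSeq, build GRCm38.p6, and read 5′ to 3′ on the strand of the gene. Capitals mark any match, on either strand, to the motifs searched for. The windows are Pck1 at chr2:173152823-173153072 on the plus strand, G6pc at chr11:101367466-101367715 on the plus strand, Fbp1 at chr13:62888283-62888532 on the minus strand and Fbp2 at chr13:62858401-62858650 on the minus strand.
Pck1: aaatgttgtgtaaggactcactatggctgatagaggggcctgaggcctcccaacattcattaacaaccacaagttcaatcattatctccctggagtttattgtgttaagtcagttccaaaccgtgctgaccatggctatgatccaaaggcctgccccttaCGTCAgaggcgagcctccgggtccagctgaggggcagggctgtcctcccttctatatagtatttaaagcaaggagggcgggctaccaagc
G6pc: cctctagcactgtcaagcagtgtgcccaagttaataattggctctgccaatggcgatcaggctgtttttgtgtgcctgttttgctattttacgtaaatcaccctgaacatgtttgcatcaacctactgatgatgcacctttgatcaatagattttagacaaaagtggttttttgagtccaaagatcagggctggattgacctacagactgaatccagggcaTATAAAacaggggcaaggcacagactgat
Fbp1: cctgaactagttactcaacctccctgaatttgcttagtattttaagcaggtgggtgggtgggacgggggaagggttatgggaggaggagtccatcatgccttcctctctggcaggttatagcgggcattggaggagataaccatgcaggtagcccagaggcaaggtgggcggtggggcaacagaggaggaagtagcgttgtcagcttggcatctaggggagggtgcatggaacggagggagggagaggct
Fbp2: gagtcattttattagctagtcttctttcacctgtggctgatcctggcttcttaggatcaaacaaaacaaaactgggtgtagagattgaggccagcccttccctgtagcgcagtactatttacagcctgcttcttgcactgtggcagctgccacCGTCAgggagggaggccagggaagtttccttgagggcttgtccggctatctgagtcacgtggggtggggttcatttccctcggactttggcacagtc
The motifs were the core of the cyclic AMP response element (TGACG), a forkhead site (TGTTTAC), a C/EBP site (TTGCNNAA) and a TATA box (TATAAA). In Pck1 the response element core lay on the opposite strand at bases -90 to -86 from the transcript start, and in Fbp2 it lay on the opposite strand at bases -97 to -93. G6pc had a TATA box at bases -29 to -24. Fbp1 held none of these letter strings, which says nothing of the factors that act there. All 8 measured genes had an entry in the RefSeq promoter table, with 12 windows in all. The response element core was present in 4 of the 12 windows, a pair of which are overlapping windows of Slc37a4 that share 1 match, and in 17.8% of all 32851 windows. A TATA box was present in 2 of the 12 and in 12.4% of all windows, and a C/EBP site in 1 of the 12, at Ugp2, and in 9.56% of all. The forkhead site, found in 3.17% of all windows, was present in 0 of the 12. A match is a description of sequence, and neither array measures binding or transcription at these windows.

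The tissue was first checked against marker genes, because title and source field disagree. A background threshold was set on each array at the 95th percentile of 100 measured genes typical of brain, testis, eye (retina and lens) and striated muscle, which gave signals of 475.7 on replicate 1 and 389.2 on replicate 2. The median signal of all 12488 probe sets was 163.2 on replicate 1 and 157.7 on replicate 2. Of all 8251 genes, 2574 (31.2%) were above background on both arrays. All 18 measured hepatocyte markers were above it, led by Alb, Serpina1c and Apoa1, with Hpd lowest at 504.2 on replicate 1 and 598.3 on replicate 2. Of the 16 measured spleen and lymphocyte markers 2 were above it. Cd74 gave 4828 and 5566, at percentile 96.5, and Ighm gave 629.6 and 589.7. Ighm was read from the brightest of its 16 probe sets, and the next gave 399.2 and 284.4, below the threshold of each array. Cd4 gave 337.3 and 503.0 and the lowest, Cd8b1, gave 15.9 and 8.80. Among the hepatocyte markers, Apoa2 was read from a set of suffix f (19482 and 19735), and its other set gave 170.7 and 81.5, below both thresholds. The other sets of Serpina1c (53319 and 57318) and Tdo2 (4549 and 4428) were above both. Apoa2 and Tdo2 were named after their values were seen. The markers of the titled tissue were thus present on both arrays.

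Of the 8 measured gluconeogenesis and glycogen genes, 7 lay above background on both arrays, where 31.2% of all genes did. Their median percentile of signal among all genes was 96.3 (96.1 on replicate 1 and 96.3 on replicate 2), against 49.7 for all genes. The exception was Fbp2. The 7 genes above background had a median percentile of 97.1, against 84.3 for all 2574 genes above background on both arrays. The hepatocyte markers had a median percentile of 99.4. Probe brightness depends on probe sequence, so percentiles place a gene within the signal of the array and do not rank the abundance of transcripts.

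**Figure D1:**
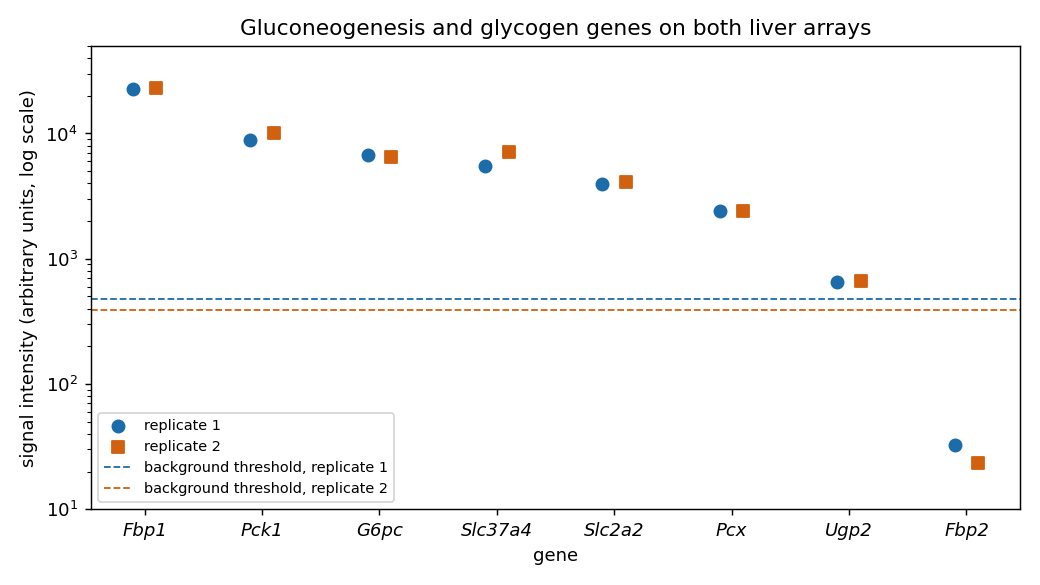
Signal intensity (arbitrary units, log scale) of the 8 measured genes on replicate 1 (circles) and replicate 2 (squares), with 1 probe set per gene and the background threshold of each array as a dashed line. Fbp1 to Ugp2 lie above both lines on both arrays and Fbp2 lies below both.

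The pathway starts with pyruvate carboxylase, the mitochondrial enzyme that turns pyruvate into oxaloacetate. The brighter ordinary probe set of Pcx gave 2391 on replicate 1 and 2426 on replicate 2, a mean of 2409 ± 24.96 (SD, n = 2 arrays) at percentile 92.9. Both values are at least 5.03 times the threshold of their array. Its other ordinary set, of suffix f, gave 374.7 and 428.5 and passed the threshold on replicate 2 alone. The set used for the gene has the suffix s, which the array maker gives to sets whose probes can match several transcripts.

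Pcx is also a control transcript of this array type, read by sets named for parts of its length. The set named for the 5′ end gave 1164 on replicate 1 and 1125 on replicate 2. The middle sets gave 1620 and 1376 for set A and 2761 and 2604 for set B. The set named for the 3′ end gave 5217 and 5430, so all 4 control sets were above background on both arrays. The ratio of the 3′ to the 5′ set was 4.48 on replicate 1 and 4.82 on replicate 2 for Pcx. The same ratio was 0.978 and 0.954 for the control sets of Gapdh, a glycolytic enzyme, and 1.58 and 1.47 for those of beta-actin. The 6 Pcx sets therefore spanned from 374.7 to 5430, and the order of the sets was the same on both arrays. Different probes bind with different strength, and the part of probe sequence or RNA length in these ratios was not tested.

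**Figure D2:**
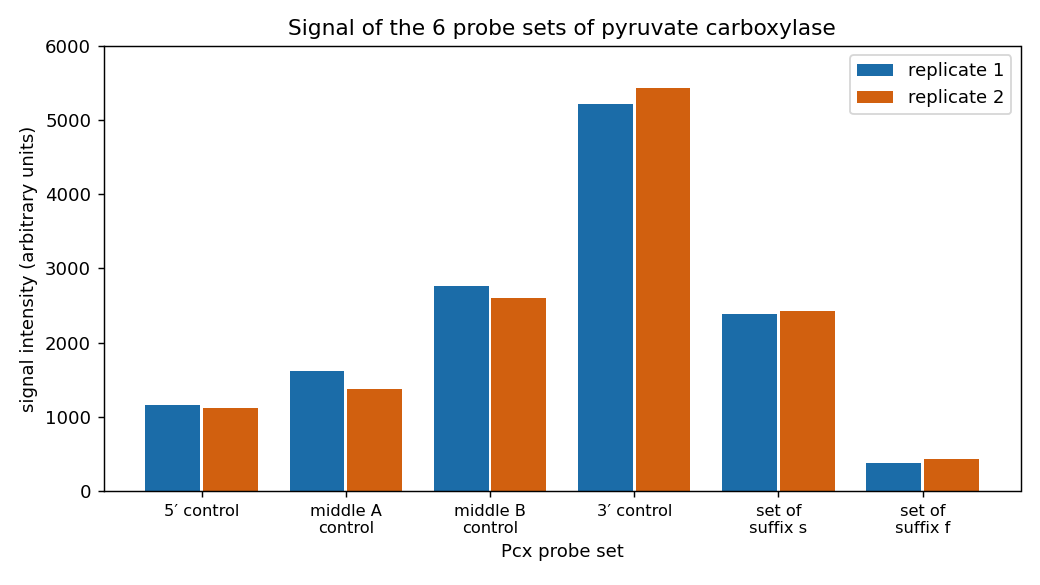
Signal intensity (arbitrary units, linear axis from 0) of the 6 probe sets of Pcx on replicate 1 (blue) and replicate 2 (orange). The control sets range from 1125 at the 5′ end to 5430 at the 3′ end, and the ordinary sets give about 2391 to 2426 (suffix s) and 374.7 to 428.5 (suffix f).

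Phosphoenolpyruvate carboxykinase makes phosphoenolpyruvate from oxaloacetate, and Pck1 encodes its cytosolic form. Pck1 gave 8887 on replicate 1 and 10023 on replicate 2, with a mean of 9455 ± 803.5 (SD, n = 2 arrays) at percentile 98.2. It held rank 159 on replicate 1 and rank 138 on replicate 2 among the 8251 genes. Its mitochondrial counterpart Pck2 gave 104.2 and 99.4 and was not above background on either array. The other probe set of Pck2, of suffix r, gave 104.0 and 26.2.

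Fructose-1,6-bisphosphatase reverses the phosphofructokinase step. Fbp1 was the brightest of the 8 genes, at 22829 on replicate 1 and 23081 on replicate 2, with a mean of 22955 ± 178.0 (SD, n = 2 arrays) at percentile 99.5. It held rank 37 and rank 40 among all genes. The muscle paralog Fbp2 gave 32.8 and 23.5, with a mean of 28.2 ± 6.58 at percentile 11.3, and held rank 7196 and rank 7440. The single probe set of Fbp1 was at least 48.0 times the threshold of its array, and that of Fbp2 was at most 0.0689 times it. A signal below the threshold is described as not above background and not as absence of the transcript.

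Glucose-6-phosphatase and its transporter release free glucose from glucose 6-phosphate. G6pc, the catalytic subunit, gave 6705 on replicate 1 and 6493 on replicate 2, a mean of 6599 ± 150.3 (SD, n = 2 arrays) at percentile 97.3. Slc37a4, the glucose 6-phosphate transporter, gave 5513 and 7076, a mean of 6294 ± 1105 at percentile 97.1. Both genes lay at least 11.6 times above the threshold on both arrays. G6pc3, the widely expressed catalytic paralog, gave 477.8 and 452.8, just above the threshold on both, and G6pc2, the islet paralog, gave 13.7 and 7.40.

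Slc2a2, the glucose carrier of hepatocytes, gave 3966 on replicate 1 and 4084 on replicate 2, with a mean of 4025 ± 83.5 (SD, n = 2 arrays) at percentile 95.5. The carriers of other tissues were not above background on either array: Slc2a1 of red cells and the blood-brain barrier gave 54.2 and 40.4, Slc2a3 of neurons gave 297.8 and 288.1, and the insulin-responsive Slc2a4 of muscle and fat gave 173.7 and 98.2. Slc2a2 and G6pc are also expressed in kidney tubule or islet cells. Of 10 measured kidney tubule markers and 8 measured islet markers, 0 were above background on both arrays, where 31.2% of all genes were. With so few genes in each list, these counts are a description only. By mean percentile the kidney list was led by Cubn (126.1 and 116.2), Kap (86.9 and 86.7) and Slc34a1 (97.5 and 62.6), and the lowest was Calb1 at 11.2 and 11.9. Among islet genes Chga gave 329.4 and 349.8, Ppy 358.8 and 273.1, and Ins2 189.3 and 206.8, and Iapp was lowest at 7.80 and 7.90. The summed signal of the kidney list was 566.4 on replicate 1 and 512.3 on replicate 2, and that of the islet list 1093 and 1024.

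Ugp2, UDP-glucose pyrophosphorylase, gave 653.7 on replicate 1 and 663.6 on replicate 2, with a mean of 658.7 ± 7.00 (SD, n = 2 arrays) at percentile 76.0. It was the dimmest of the 7 genes above background, at 1.37 times the threshold on replicate 1 and 1.70 times on replicate 2. The highest background gene was Tnp1 (1165 and 1043), read from a set of suffix r, and its other probe set gave 8.70 and 8.20. With the threshold at that gene, 6 of the 8 genes were above it on both arrays, as were 1151 of all 8251 genes. Ugp2 was the 1 of the 7 that fell below.

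The arrays were then compared with each other. Differences are log2 signal of replicate 2 minus replicate 1, after a shift of -0.01 that sets the median of the brighter 50% of probe sets to 0. Of the 8 genes, 0 differed by over 2-fold, where 14% of all genes did, as did 0.117% of the 2574 genes above background on both arrays. The median difference was 0.03, against -0.02 for all genes, and 6 of the 8 genes were higher on replicate 2, where 48.3% of all genes and 52.1% of those above background on both arrays were. With quantile normalization 5 of the 8 were higher. Each side of this comparison is a single array, so none of these differences has a check by replication.

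Slc37a4 differed most among the bright members, by a log2 of 0.37. Among the brightest of 10 equal bins of probe sets (median signal 3077), the SD of the difference was 0.18, and 4.34% of sets differed more than Slc37a4. Pck1 followed at 0.18, which 23.7% of that bin exceeded. Fbp1 (0.02), Pcx (0.03), Slc2a2 (0.05) and G6pc (-0.04) lay well inside the spread of the bin, as did Ugp2 (0.03) in the next bin, where the SD was 0.24. Fbp2 differed by -0.48, in a bin of dim probe sets where the SD was 1.38 and 67.6% of sets differed more. With quantile normalization the difference of Fbp1 was -0.05, so its direction is not settled.

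**Figure D3:**
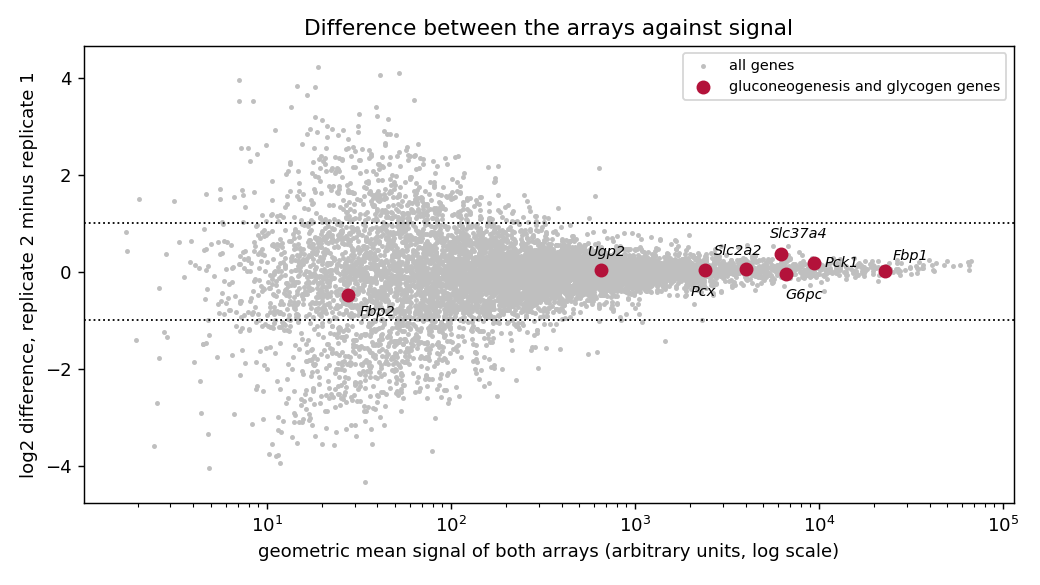
Log2 difference between the arrays (replicate 2 minus replicate 1, after the median shift) against the geometric mean signal (arbitrary units, log scale) for all 8251 genes (grey) and the 8 gluconeogenesis and glycogen genes (red). Dotted lines mark a 2-fold difference, and all 8 genes lie between them, with Slc37a4 highest at 0.37 and Fbp2 lowest at -0.48.

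The remaining genes of glucose metabolism were placed beside these enzymes, grouped by role. Of 12 other enzymes of glycogen metabolism and phosphorylase kinase subunits, 9 were measured and 3 (33.3%) were above background on both arrays, with a median percentile of 51.7. Both values lie near those of all genes, 31.2% and 49.7. Phosphoglucomutase Pgm1, which links glucose 6-phosphate to glycogen, gave 5623 on replicate 1 and 5823 on replicate 2. Gaa, the lysosomal glucosidase that degrades glycogen, gave 2520 and 2134, and Stbd1, a glycogen-binding protein, 1850 and 1933. The other probe set of Gaa, of suffix i, gave 64.4 and 86.5. Gbe1, the branching enzyme, gave 254.1 and 241.3, and the lowest, Pgm2, gave 30.2 and 56.0. The phosphorylase kinase subunits Phka2 of liver (205.1 and 246.9), Phkg2 (167.7 and 332.8) and Phkb (48.8 and 37.3) were not above background on either array. The genes named from Gbe1 and the kinase subunits on were chosen after their values were seen, except Pgm2.

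Among 5 measured regulators of glycogen synthase and phosphorylase, 3 (60%) were above background on both arrays, where 31.2% of all genes were. The 3 were the kinase Gsk3a (3431 on replicate 1 and 4033 on replicate 2) and the phosphatase catalytic subunits Ppp1cc (707.2 and 667.0) and Ppp1cb (674.4 and 556.1). The inhibitor subunit Ppp1r1a was lowest at 106.2 and 80.0. Against the highest background gene, 1 of the 5 remained above the threshold, as did 1151 of all 8251 genes.

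The reversible steps used in both directions of the pathway were represented by 3 genes of 7. Triosephosphate isomerase Tpi1 gave 7292 on replicate 1 and 6635 on replicate 2, phosphoglycerate kinase Pgk1 5147 and 4752, and phosphoglycerate mutase Pgam1 2882 and 3069. All 3 were above background on both arrays, where 31.2% of all genes were. Their median percentile was 96.3, the same to 1 decimal as that of the gluconeogenic set. The opposing glycolytic steps of liver were represented by 2 genes of 5, both above background: liver phosphofructokinase Pfkl gave 1238 and 1235, and liver and red cell pyruvate kinase Pklr gave 543.1 and 671.8. The second probe set of Pklr gave 515.0 and 503.0. Against the highest background gene, Pfkl alone of these 2 remained above the threshold, as did 1151 of all 8251 genes.

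Isozymes that replace these enzymes in other tissues were mostly dim. Of 24 measured, 4 (16.7%) were above background on both arrays, with a median percentile of 35.9, against 31.2% and 49.7 for all genes. The 4 were hexokinase Hk1 (6117 on replicate 1 and 5240 on replicate 2), aldolase Aldoa (2273 and 2526), muscle phosphofructokinase Pfkm (585.4 and 554.1) and G6pc3. Hk1 is the hexokinase of brain and red cells, and its signal came from a single ordinary probe set at percentile 96.9. The muscle glycogen synthase Gys1 gave 450.7 and 615.6 and passed the threshold on replicate 2 alone, as did the muscle enolase Eno3 (406.5 and 459.6), while the brain aldolase Aldoc (506.2 and 325.1) passed it on replicate 1 alone.

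The phosphorylases of muscle and brain, Pygm (22.2 on replicate 1 and 39.5 on replicate 2) and Pygb (83.0 and 59.2), were not above background on either array. The same held for the muscle-type phosphorylase kinase subunits Phka1 (126.5 and 101.4) and Phkg1 (17.1 and 28.3). Among glycolytic isozymes it held for Hk2 (59.7 and 92.4), Pfkp (67.8 and 79.8), Pfkfb3 (120.0 and 230.0), Pkm (339.6 and 197.6), Eno2 (40.7 and 21.9), Pgam2 (15.6 and 12.8), and the sperm isozymes Gapdhs (168.7 and 183.6) and Ldhc (6.50 and 8.60). Of 16 measured skeletal muscle markers, 2 (12.5%, against 31.2% of all genes) were above background on both arrays, Pvalb (986.7 and 903.1) and Acta1 (803.3 and 676.3). Atp2a1 was the next (475.5 and 363.2), the lowest was Tnni2 (27.0 and 49.5), and the list had a median percentile of 42.1. Of these 16 genes, 10 (Acta1, Atp2a1 and Tnni2 among them) also served to set the background, so their count says little, and of the other 6 only Pvalb was above it on both arrays. Pvalb was read from a set of suffix i, and its other set, of suffix f, gave 67.3 and 14.0. Ldhc is a background gene as well.

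The genes that bring carbon into the pathway or carry it between compartments were above background in 10 of 18 cases (55.6%), with a median percentile of 80.8. Gne, of sialic acid synthesis, stands in that list although it does neither, and without it 9 of 17 (52.9%) were above background and the median percentile was 75.3. These 17 still hold Pdk4, a kinase of pyruvate dehydrogenase, which gave 222.5 on replicate 1 and 197.9 on replicate 2 and does neither as well. Over all genes the share was 31.2% and the median percentile 49.7. Lactate dehydrogenase Ldha, which returns lactate to pyruvate, gave 11850 on replicate 1 and 11661 on replicate 2, the citrate carrier Slc25a1 3545 and 3755, and Gne 3330 and 3453. For glycerol, the channel Aqp9 gave 2430 and 2242, and the cytosolic dehydrogenase Gpd1 1972 and 1953. Mitochondrial malate dehydrogenase Mdh2 gave 3101 and 3053, and its cytosolic partner Mdh1 351.0 and 312.2. The lowest was the cytosolic aspartate transaminase Got1, at 11.0 and 4.70, and ketohexokinase Khk, the first enzyme of fructose use, gave 16.2 and 7.20, each from a single probe set. Aqp9, Gpd1, Got2, Galt, Pdk4, Mdh1, Mdh2 and Khk were named after their values were seen.

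The list of regulators of gluconeogenesis, which also holds the hormone-controlled targets Tat and Igfbp1, was above background in 18 of 35 cases (51.4%), with a median percentile of 68.4. Without these targets 16 of 33 (48.5%) were above it and the median percentile was 66.8, against 31.2% and 49.7 for all genes. The brightest 3 of the list were Tat, a transaminase induced by glucocorticoids that is also among the hepatocyte markers (34694 on replicate 1 and 34026 on replicate 2), and the transcription factors Cebpa (9564 and 10542) and Cebpb (5489 and 5971). Nr2f1 was lowest at 20.3 and 3.80. The receptors and factors that hormone signals pass through were spread over the whole range. The glucagon receptor Gcgr gave 3287 and 3261, and the nuclear receptor Hnf4a 1454 and 1602. The insulin receptor Insr gave 113.3 and 51.9, the glucocorticoid receptor Nr3c1 56.9 and 47.2, the cyclic AMP-responsive factor Creb1 138.3 and 140.7, and the coactivator Ppargc1a 74.5 and 48.0. These last 4 were not above background on either array, and these 6 genes were named after their values were seen. Against the highest background gene, 10 of the 35 remained above the threshold, as did 1151 of all 8251 genes.

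**Figure D4:**
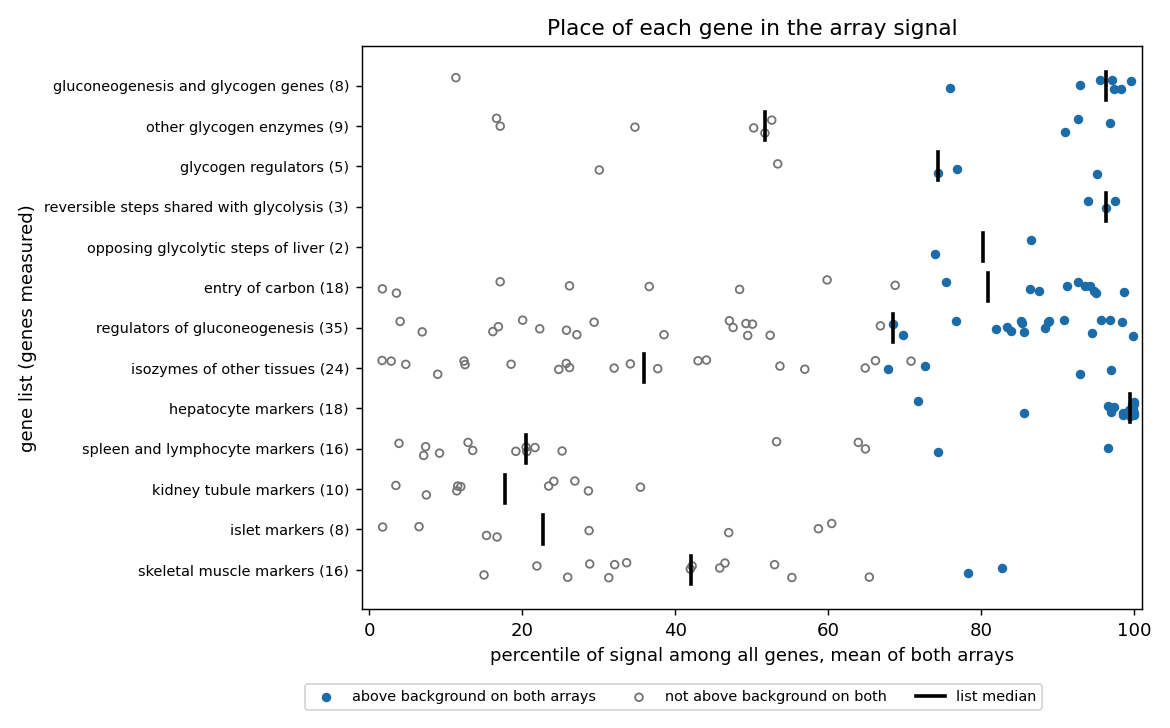
Percentile of signal among all 8251 genes (mean of both arrays, x axis) for each gene of the lists named on the y axis, with the number measured in brackets. Filled points are above background on both arrays, open points are not, and bars are list medians. The medians were 99.4 for hepatocyte markers and 96.3 for the gluconeogenesis and glycogen genes and for the reversible steps. They were 35.9 for isozymes of other tissues and 17.7 for kidney tubule markers.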

How the data were processed

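Total RNA of 2 mouse samples titled liver was measured on 1 array each. The deposited values are linear signal intensity per Affymetrix probe set, and all are above 0. Both arrays had a 2% trimmed mean of 500.5. How the signals were scaled and summarised is not given in the sources used here, so background correction could not be repeated. Of 12488 probe sets, the platform annotation named 1 gene for 10855, several for 396 and none for 1237, and 66 are controls. All 8 member symbols matched RefSeq GRCm38.p6 by gene identifier. A gene was read from its brightest non-control probe set by mean log2 signal. The arrays shared 16 identical values and were not copies. With 1 group no test was run and no p-value computed. Array number limits precision, and arrays have no count depth.

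The members and gene lists were chosen with earlier results of these data known. The named genes are every member, the top 3 and the bottom gene of each list, and every measured isozyme, opposing and reversible step. Further genes were named after their values were seen, and the Results say which. Alternatives were other background thresholds, averaged probe sets per gene, omitting suffixed probe sets (f, s, r, i, g before at), each array alone, no shift, other shifts, quantile normalization and log2(value + 32). The shift, the recovery of changed probe sets, quantile normalization and the background threshold were run on simulated data. The share of background genes above that threshold is fixed by its definition. Other steps were not simulated. The software was matplotlib 3.10.9, pandas 2.3.3 and numpy 2.4.6 under Python 3.11.15.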

Additional observations from a re-analysis of the deposited data

How the results depend on the processing

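The count of all genes above background ran from 1151 to 3288 under the alternatives. That of the gluconeogenesis and glycogen genes was 6 or 7 under every alternative run. It was 6 without suffixed probe sets, which leaves Pcx out, and with the threshold at the highest background gene. Their median percentile was 96.3, with 97.0 when a gene's probe sets were averaged, 97.4 without suffixed probe sets, and 96.1 to 96.3 with each array left out. The level of Pcx was 983.1 with the mean of its probe sets, against 2409. The median difference between arrays ran from 0.01 to 0.05, and 0 genes passed 2-fold under any alternative.

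Counts of the other lists moved more. At the 90th percentile 7 isozymes were above background, against 4. At the highest background gene the counts were 1 glycogen regulator, 1 opposing step, 10 regulators of gluconeogenesis, 2 isozymes, 1 spleen marker and 0 muscle markers, and 1151 of all genes. With a threshold from plain background sets they were 7 isozymes, 4 spleen markers and 1 islet marker. Averaging probe sets gave 7 isozymes and 1 muscle marker, and leaving out suffixed sets gave 1 islet and 1 muscle marker. In alternatives chosen after seeing the data, 1 muscle marker was above background without the genes that set it, and isozymes without Ldhc, carbon entry without Gne and regulators without Tat and Igfbp1 gave 4, 9 and 16. No paired analysis was possible because both samples form 1 group. Signals near the threshold, such as Ugp2 and G6pc3, are the least certain.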
